A study of Mus musculus with 6 samples.

Results

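The genes described here are 10 genes that fat cells use, Adipoq, Cfd, Retn, Lep, Plin1, Cidea, Fabp4, Pck1, Slc7a10 and Ucp1, measured in whole mouse lung. They were taken by gene symbol from the array and had been chosen by their levels on these same arrays, so their own values are given as a description, with no test. All 10 have at least 1 probe among the 16358 gene symbols on the array, and 8 passed the filter on dim probes that left 12968 genes for testing. The other 2, Lep and Ucp1, were not well above background on any of the 6 arrays. Because a gene could pass through its brightest genotype alone, the 8 do not stand for adipocyte genes at large.

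The lungs came from C57BL/6 mice of 3 genotypes, with 2 arrays for each. WT mice carried no transgene, tg/wt mice carried hCD2-T-bet on 1 allele and tg/tg mice carried it on both. In this transgene the human CD2 regulatory region drives T-bet, the transcription factor of T helper 1 cells, in T cells, and the series was set up to study the pulmonary alveolar proteinosis, a build-up of surfactant in the air spaces, that follows. The labels give no age, sex or line number, and do not say whether the 2 arrays of a genotype came from different mice. If they did not, p-values measure only technical spread between arrays. Total RNA of the lung was labelled with 1 dye and hybridised to Agilent arrays.

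Fat cells store triglyceride in a lipid droplet, take up and release fatty acids, and secrete hormones called adipokines. White fat cells hold a single large droplet and make leptin and adiponectin, whereas brown fat cells burn fatty acids for heat through the uncoupling protein Ucp1. The lung has few fat cells of its own, but fat lies beside the airways, the great vessels and the heart. Alveolar macrophages, lipid-laden fibroblasts and capillary endothelium also use part of the same gene set, Fabp4 and Pparg among them.

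Promoter sequences from the RefSeq table, build GRCm38.p6, were searched because the genes are commonly described as targets of the same fat cell regulators, the nuclear receptor Pparg and the C/EBP proteins. The table holds a promoter for 8 of the 10 genes, with Fabp4 and Cidea missing. The 150 bases before the start are shown for the pair of genes with a C/EBP core match in that stretch (Plin1 and Lep) and for a pair with no match (Slc7a10 and Adipoq), which were at least 150-fold and 54.9-fold lower in tg/tg than in WT. They are written 5′ to 3′ on the gene's strand, with motif matches in capitals.
Plin1, chr7:79732777-79732926, minus strand: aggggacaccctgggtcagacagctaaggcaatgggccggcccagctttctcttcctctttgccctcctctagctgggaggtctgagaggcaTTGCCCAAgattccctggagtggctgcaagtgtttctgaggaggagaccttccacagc
Lep, chr6:29060071-29060220, plus strand: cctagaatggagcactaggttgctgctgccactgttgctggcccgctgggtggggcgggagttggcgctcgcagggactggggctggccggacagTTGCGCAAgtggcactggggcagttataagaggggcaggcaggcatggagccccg
Slc7a10, chr7:35186235-35186384, plus strand: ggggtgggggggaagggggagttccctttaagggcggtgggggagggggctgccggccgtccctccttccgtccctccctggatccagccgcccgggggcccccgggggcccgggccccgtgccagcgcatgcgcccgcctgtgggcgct
Adipoq, chr16:23146386-23146535, plus strand: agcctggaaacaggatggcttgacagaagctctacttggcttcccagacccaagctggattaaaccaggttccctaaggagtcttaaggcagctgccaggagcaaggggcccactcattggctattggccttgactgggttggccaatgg

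Over the 250 bases before the start and on both strands, the C/EBP core TTGCNNAA was present at Plin1 and Lep, 2 of 8 genes, against 9.56% of the 32851 promoters of that length in the table. Plin1 held it as TTGCCTAA from 187 to 180 and as TTGCCCAA from 58 to 51 bases before the start, and Lep as TTGCGCAA from 55 to 48 bases before it, a match that reads the same on both strands. The nuclear receptor element AGGTCA was present at Ucp1 alone of the 8, from 14 to 9 bases before the start, against 14.0% of all promoters. The TATA box letters TATAAA were in none of the 8 windows and in 12.4% of all. Plin1, measured in the lung, and Lep, below background, shared the C/EBP core, and Slc7a10 and Adipoq had none of the 3 motifs in this window.

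The 75th percentile of signal ranged from 794 to 1204 intensity units, the median from 76.7 to 118, and the share of probes well above background from 62.0% to 66.8%. Replicate arrays correlated at 0.996 to 0.997 over all genes tested. Tbx21, which encodes T-bet, stood at -0.70 and -0.71 on WT arrays, 1.30 and 1.34 on tg/wt arrays and 3.25 and 3.26 on tg/tg arrays, in the order of the transgene dose. The 7 lung genes checked, surfactant and airway genes among them, were above background on all 6 arrays. WT and tg/tg shared 1 slide, and both tg/wt arrays came from another, so slide and genotype cannot be told apart in either comparison with tg/wt. All levels below are log2 of the processed signal minus the array's own 75th percentile, and a level of 1 gene's probe says nothing about the level of another gene.

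The 8 measured adipocyte genes were lower in tg/tg than in WT, from 2.41-fold (Cidea) to at least 150-fold (Slc7a10), and all were also lower in tg/wt than in WT, by 1.14-fold to 2.14-fold. The values were close within WT, where the 2 arrays differed by at most 0.09 for each gene. In every comparison the arrays of the 2 genotypes did not overlap for any of the 8 genes. Among all 12968 genes, 47.7% were lower without overlap in tg/tg against WT, 37.5% in tg/wt against WT and 47.4% in tg/tg against tg/wt. The median difference of the 8 genes was -5.09 in tg/tg against WT, or -4.26 with the 3 genes below background in tg/tg set at their bound, beside -0.05 over all genes. In a bulk sample, fewer cells of a type and less RNA per cell cannot be told apart.

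**Figure D1:**
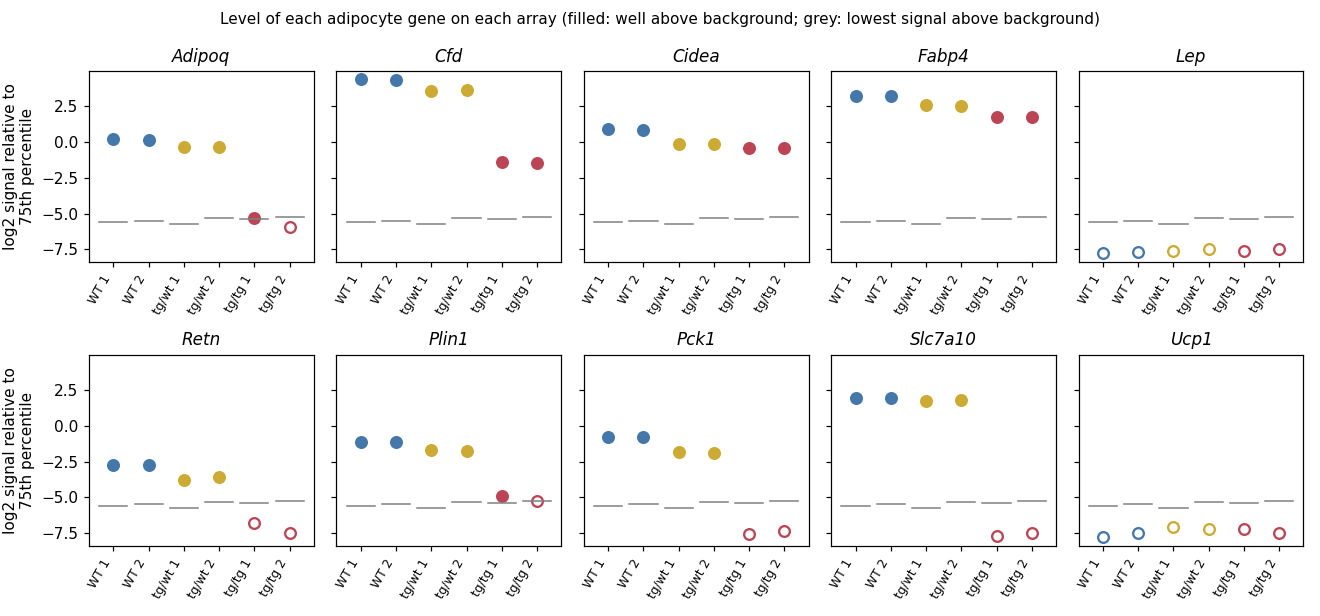
Each panel shows 1 adipocyte gene; each point is 1 array, its height the log2 signal relative to the array's 75th percentile, filled where well above background and open where not, and the grey lines mark the lowest signal above background on that array. Slc7a10 stood at 1.92 to 1.93 in WT and 1.70 to 1.77 in tg/wt and was below background in tg/tg, whereas Lep and Ucp1 were open on all 6 arrays.

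Among the secreted factors, adiponectin (Adipoq, probe A_51_P458451), the insulin-sensitising hormone of fat, stood at 0.20 and 0.12 on WT arrays, -0.36 and -0.39 on tg/wt arrays and -5.28 and -5.96 on tg/tg arrays. WT was highest, tg/wt lay close beneath it, and tg/tg lay at the edge of detection, with 1 of its 2 arrays well above background. The mean difference from WT was 54.9-fold in tg/tg (-5.78 on the log2 scale) and 1.44-fold in tg/wt. The value for tg/tg rests partly on a signal below background, and was -5.41 with a floor on low values and -3.67 and -3.72 with normexp correction on the median signal, without and with the local background capped. Adipsin (Cfd, A_51_P156955), the serine protease that activates complement factor B, stood at 4.35 and 4.29 on WT arrays, 3.58 and 3.61 on tg/wt arrays and -1.43 and -1.46 on tg/tg arrays. It was above background on all 6 arrays, so its 54.5-fold difference between tg/tg and WT and 1.65-fold difference between tg/wt and WT are measured on both sides. On the log2 scale the Cfd difference between tg/tg and WT was -5.77, and it was -5.18 and -5.49 with the same normexp versions.

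Resistin (Retn), another hormone of mouse fat cells, was read by a pair of probes. On A_52_P55972 it stood at -2.74 on both WT arrays, -3.81 and -3.58 on tg/wt arrays, and -6.81 and -7.48 on tg/tg arrays. On A_51_P233597 it stood at -3.45 and -3.41 on WT arrays, -4.30 and -4.60 on tg/wt arrays and -7.25 and -6.77 on tg/tg arrays. Both probes put the genotypes in one order, with neither tg/tg array above background, which bounds the difference between tg/tg and WT at at least 5.91-fold and at least 3.66-fold respectively. The tg/wt level was 1.94-fold and 2.03-fold lower than WT on the 2 probes. Leptin (Lep, A_52_P374882), the satiety hormone of white fat, gave levels of -7.73 to -7.45 on the 6 arrays, all not well above background, so no fold is given.

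Of the lipid droplet genes, perilipin 1 (Plin1, A_51_P244497), the coat protein of the fat cell's droplet and gatekeeper of its lipases, stood at -1.12 and -1.14 on WT arrays, -1.66 and -1.77 on tg/wt arrays and -4.92 and -5.28 on tg/tg arrays. One tg/tg array was above background, and the mean differences from WT were 15.7-fold in tg/tg (-3.97 on the log2 scale) and 1.51-fold in tg/wt. With the normexp versions the Plin1 difference in tg/tg was -2.64 and -2.40. Cidea (A_51_P199168), a droplet fusion protein of brown and beige fat, stood at 0.87 and 0.84 in WT, -0.13 on both tg/wt arrays and -0.42 on both tg/tg arrays. Cidea was above background throughout, and here tg/wt lay nearer to tg/tg than to WT. Its level was 1.98-fold lower than WT in tg/wt and 2.41-fold lower in tg/tg, a further 1.22-fold.

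Of the genes of fatty acid handling, Fabp4 (A_51_P336833), the fatty acid carrier of fat cells that endothelium and macrophages also make, stood at 3.22 and 3.20 on WT arrays, 2.55 and 2.53 on tg/wt arrays and 1.74 and 1.75 on tg/tg arrays. Its 3 probes gave differences of -1.47, -1.47 and -1.44 in tg/tg and of -0.68, -0.68 and -0.65 in tg/wt, with every array above background. Pck1 (A_51_P250217), the enzyme that feeds glycerol synthesis for triglyceride in fat and glucose synthesis in liver and kidney, stood at -0.76 and -0.77 on WT arrays, -1.84 and -1.89 on tg/wt arrays and -7.59 and -7.38 on tg/tg arrays. Pck1 was 2.14-fold lower in tg/wt than in WT and not above background on either tg/tg array, at least 23.3-fold below WT.

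Slc7a10 (A_51_P268193), a transporter of small neutral amino acids at the surface of white fat cells, stood at 1.93 and 1.92 on WT arrays, 1.70 and 1.77 on tg/wt arrays and -7.70 and -7.50 on tg/tg arrays. In signal these were 3601 and 3660 units on WT arrays, 3907 and 3167 on tg/wt arrays, and 3.8 and 5.6 on tg/tg arrays. The tg/wt arrays lay just beneath WT, by 1.14-fold, a difference whose sign turned under normexp background correction on the median signal, while the tg/tg arrays were not above background, at least 150-fold beneath WT and at least 131-fold beneath tg/wt. Slc7a10 thus was close to WT with 1 transgene allele and not above background with both. Ucp1 (A_51_P426353), the heat-producing uncoupling protein that defines brown fat, gave levels of -7.78 to -7.10, below background on all 6 arrays.

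**Figure D2:**
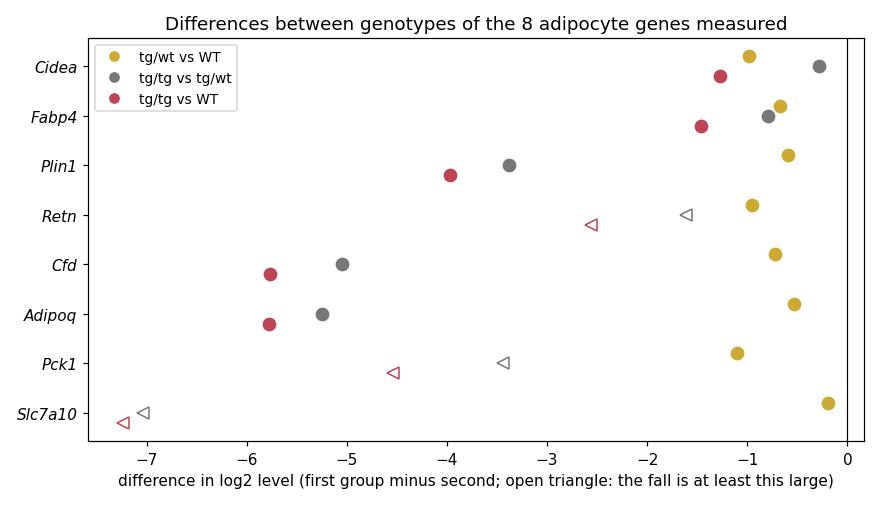
Each row is 1 adipocyte gene and the x axis is the difference in log2 level between 2 genotypes (2 arrays each); filled points are measured, and open triangles mark a fall of at least the size shown because the tg/tg arrays were not above background. Cidea and Fabp4 lie between -1.27 and -1.47 in tg/tg against WT, while Cfd and Adipoq lie at -5.77 and -5.78.

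The 8 genes did not share one profile over the transgene dose. Of the total difference between WT and tg/tg, the step from WT to tg/wt held 77.5% for Cidea, 46.1% for Fabp4, 14.9% for Plin1, 12.5% for Cfd and 9.18% for Adipoq, where tg/tg is near background for Plin1 and Adipoq. Retn, Pck1 and Slc7a10 were below background in tg/tg, and so have no such share. From tg/wt to tg/tg, Cfd was 33.0-fold lower, Adipoq 38.0-fold lower and Plin1 10.4-fold lower. Fabp4 was 1.73-fold lower over the same step, Retn at least 3.06-fold and Pck1 at least 10.9-fold. The 8-gene median for that step was -4.25, or -3.41 with the 3 bounds, beside -0.05 over all genes, and for WT to tg/wt it was -0.70 beside -0.00497. The comparisons with WT share the WT arrays, and so do not stand apart from each other.

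The tg/tg arrays differed from each other by 0.69 for Adipoq, 0.68 for Retn and 0.36 for Plin1, where signal was at or below the edge of detection, against a median of 0.07 over all genes. For Cfd, Cidea and Fabp4, which stayed above background, they differed by at most 0.03. The wide spread thus lay in genes near background, and the bright genes agreed within 0.07 in every genotype. The offset of 50 units in the normexp versions raises low signals, and with it the differences in tg/tg against WT were as small as -5.46 for Slc7a10, -3.09 for Pck1 and -1.51 for Retn, less than the bounds given above.

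The other adipocyte genes are 89 genes in 7 lists, 77 of which were tested, and these can be tested with limma's moderated test over all 12968 genes, at an adjusted p of 0.05 (Benjamini-Hochberg). In tg/tg against WT, 45 of the 77 were lower and 21 higher, beside 40.8% of all genes lower and 33.8% higher. That is 58.4% lower, with a median difference of -0.36, or -0.35 with bounds, beside -0.05. In tg/wt against WT, 31 of the 77 were lower, 40.3%, and 3 were higher, beside 14.6% of all genes lower and 13.4% higher, with a median of -0.15. In tg/tg against tg/wt, 44 were lower and 24 higher, beside 40.2% and 34% of all genes, with a median of -0.39, or -0.32 with bounds. The counts of 21 and 24 higher include Orm1, Itln1 and Cideb, which passed the filter on dim probes only with the tg/tg arrays. The lists were written with earlier results of these arrays known.

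The count for tg/wt against WT depends on each array. Without WT 1 it was 12 and without WT 2 15, and without tg/wt 1 it was 16 and without tg/wt 2 15. With normexp background correction on the median signal limma called none lower after adjustment, and 25 at an unadjusted p under 0.05. Of the 34 genes called lower or higher in tg/wt against WT, 8 changed sign with it. They were Cd36, Cebpb, Hilpda, Lpin1, Plin3, Plin4, Pnpla2 and Rbp4. In tg/tg against WT the same correction ended the calls of Angptl4, Cebpa, Dio2, Ebf1, Gk, Itln1, Lgals12, Lipe, Me1 and Mrap among the genes named here. A stricter filter, at least 4 arrays above background, removed the calls of Cideb, Ebf2, Itln1 and Orm1 in tg/tg against WT and against tg/wt.

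The lipid droplet list, 10 genes tested, had 7 lower and 3 higher in tg/tg against WT, or 70% and 30%, beside 40.8% and 33.8% of all genes. Of the 3 higher, Cideb was above background on the tg/tg arrays alone, so it passed the filter only through them. Its sign turned under normexp on the median signal. Bscl2, also among the 3, gave -0.31 on another probe. Cidec, which fuses droplets into the single large one of white fat, stood at 2.17 and 2.14 on WT arrays, 2.04 and 2.12 on tg/wt arrays and -4.29 and -4.26 on tg/tg arrays, above background on all arrays. It fell 86.3-fold from WT to tg/tg (difference -6.43, SE 0.04, limma adjusted p 6.38e-07) and 81.9-fold from tg/wt to tg/tg, while its difference of -0.07 between tg/wt and WT did not pass (adjusted p 0.261 by limma). Plin4, a droplet coat protein of white fat, fell by 2.64 (SE 0.04, limma adjusted p 1.65e-06), and G0s2, which inhibits the lipase Pnpla2, fell by 2.23 (SE 0.06, limma adjusted p 7e-06). Plin2, the droplet coat of most other cells, went the opposite way, at 4.19 and 4.20 on WT arrays, 4.22 and 4.10 on tg/wt arrays and 5.61 and 5.54 on tg/tg arrays, a rise from WT to tg/tg of 1.38 (SE 0.05, limma adjusted p 2.15e-05). In tg/wt against WT 5 of the 10 were lower, 50% beside 14.6% of all genes, and none of the 10 was higher. None of these 5 calls was kept under normexp on the median signal, where Hilpda, Plin3 and Plin4 changed sign. Plin5, the droplet coat of muscle and other oxidative cells, was lower by 0.65 (difference -0.65, limma adjusted p 0.00105).

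The triglyceride list, 14 genes tested, had 7 lower and 5 higher in tg/tg against WT and 8 lower with none higher in tg/wt against WT. In tg/tg that is 50% and 35.7%, near the 40.8% and 33.8% of all genes. In tg/wt it is 57.1% lower beside 14.6%. The carboxylesterase Ces1f stood at 0.95 and 0.96 on WT arrays, 0.24 and 0.20 on tg/wt arrays and -3.80 and -3.74 on tg/tg arrays, a 26.4-fold fall from WT to tg/tg (SE 0.04 on the log2 scale, limma adjusted p 6.38e-07). Ces1d, a related lipid esterase of lung and fat, fell 3.95-fold and Dgat2, which makes triglyceride, fell 2.58-fold (limma adjusted p 1.03e-05 and 1.82e-05). Lipe, the hormone-sensitive lipase of fat cells, did not follow one direction: it stood at -0.86 and -0.82 on WT arrays, -1.34 and -1.16 on tg/wt arrays and -0.29 and -0.38 on tg/tg arrays. It was lower in tg/wt (-0.41, limma adjusted p 0.0196) and higher in tg/tg (0.50, limma adjusted p 0.00253) than in WT. Lpl, which releases fatty acids from circulating lipid and is also made by macrophages, was lower in tg/wt than in WT (-0.55, limma adjusted p 0.0357).

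The fatty acid synthesis list, 7 genes tested, had 3 lower and 2 higher in tg/tg against WT, or 42.9% and 28.6%, near the 40.8% and 33.8% of all genes. In tg/wt against WT 4 were lower, 57.1% beside 14.6%. Thrsp, a regulator of lipid synthesis, fell by 1.37 in tg/tg (SE 0.05, limma adjusted p 2.15e-05), and Scd1 and Elovl6, which desaturate and elongate fatty acids, rose by 0.88 and 0.69 (limma adjusted p 0.000914 and 8.54e-05). In tg/wt against WT Thrsp and the malic enzyme gene Me1 were lower, at -0.33 and -0.27 (limma adjusted p 0.0158 and 0.00716), and so was Acaca, the first enzyme of fatty acid synthesis, at -0.42 (limma adjusted p 0.0474), although another of its probes gave 0.42. A further Acaca probe gave -0.55. The tested Acaca probe was near background, at -5.10 and -4.80 in WT and -5.43 and -5.31 in tg/wt, with 1 tg/wt array above background.

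The regulator list, 11 genes tested, had 7 lower and 2 higher in tg/tg against WT, and 2 lower and 2 higher in tg/wt against WT. In tg/tg that is 63.6% and 18.2%, beside 40.8% and 33.8% of all genes. In tg/wt it is 18.2% each, near the 14.6% and 13.4% of all genes. Pparg, the nuclear receptor that fat cells and alveolar macrophages need to mature, stood at 0.76 and 0.68 on WT arrays, 0.90 and 0.93 on tg/wt arrays and -0.27 and -0.21 on tg/tg arrays. It was thus highest in tg/wt and fell by 0.96 from WT to tg/tg (SE 0.05, limma adjusted p 4.42e-05). Klf15, which supports fat cell maturation and is also made in heart and muscle, fell 4.74-fold and Ebf1, an early fat cell and B cell factor, fell 1.54-fold (limma adjusted p 1.34e-05 and 0.00159). Of the C/EBP genes, Cebpd was lower in tg/wt than in WT at -0.61 (limma adjusted p 0.00102), and Cebpa was higher at 0.22 (limma adjusted p 0.0136). Cebpb was lower in tg/wt at -0.26 (limma adjusted p 0.0104), with the sign turned under normexp on the median signal, and higher in tg/tg at 0.41 (limma adjusted p 0.000377). Another Cebpb probe gave -0.05 in tg/wt and 0.57 in tg/tg.

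Of the secreted list, 9 genes tested, 5 were lower and 4 higher in tg/tg against WT, or 55.6% and 44.4%, beside 40.8% and 33.8% of all genes. Rbp4, the retinol carrier secreted by liver and fat, stood at 3.23 and 3.19 on WT arrays, 3.06 and 3.01 on tg/wt arrays and 0.57 and 0.59 on tg/tg arrays, a 6.18-fold fall from WT to tg/tg (SE 0.04 on the log2 scale, limma adjusted p 1.34e-06). Orm1, an acute-phase protein of liver and other tissues, was at least 53.9-fold higher in the tg/tg lungs than in those of WT, where neither WT array was above background. Itln1 was at least 2.30-fold higher in tg/tg on the same basis, with the sign turned under normexp on the median signal. Without the tg/tg arrays neither Orm1 nor Itln1 would have passed the filter on dim probes, so no p-value is given. Both remain in the count of 4 higher. Between tg/wt and WT, Angptl4, an inhibitor of Lpl, was lower (-0.37, limma adjusted p 0.00554) and Apln, a peptide of endothelium and fat, was higher (0.28, limma adjusted p 0.0187), although another of its probes gave -0.04.

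Of the list of surface and other fat cell genes, 12 tested, 7 were lower and 3 higher in tg/tg against WT and 4 were lower in tg/wt against WT. In tg/tg that is 58.3% and 25%, beside 40.8% and 33.8% of all genes. In tg/wt it is 33.3% lower beside 14.6%. Car3, a carbonic anhydrase of fat and slow muscle, stood at 0.42 and 0.47 on WT arrays, 0.10 and 0.08 on tg/wt arrays, and below background in tg/tg, at least 53.6-fold lower than WT (limma adjusted p 7.2e-07). Slc2a4, the insulin-regulated glucose transporter of fat and muscle, stood at 1.31 and 1.32 on WT arrays, 0.74 and 0.70 on tg/wt arrays and -1.01 and -0.97 on tg/tg arrays, a 4.93-fold fall from WT to tg/tg (limma adjusted p 1.63e-06). Lgals12, a galectin of the fat cell droplet, was at least 2.19-fold lower in tg/tg (limma adjusted p 0.00999). Mrap, which carries the corticotropin receptor to the surface of adrenal and fat cells, went both ways, at -0.53 in tg/wt and 1.41 in tg/tg relative to WT (limma adjusted p 0.00511 and 2.14e-05).

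The brown fat list, 14 genes tested, had 9 lower and 2 higher in tg/tg against WT and 6 lower in tg/wt against WT. In tg/tg that is 64.3% and 14.3%, beside 40.8% and 33.8% of all genes. In tg/wt it is 42.9% lower beside 14.6%. Its 3 widest falls from WT to tg/tg among genes that also differed in tg/wt were Cox8b (29.5-fold), Fabp3 (18.7-fold) and Cox7a1 (15.8-fold), with limma adjusted p of 8.14e-07, 6.38e-07 and 1.04e-06. Already in tg/wt the same genes were lower than in WT, with differences of -1.21, -1.003 and -1.18 (limma adjusted p 0.000616, 0.000347 and 0.000514). These encode respiratory chain subunits and a fatty acid carrier that heart and muscle also make. Dio2, the deiodinase that activates thyroid hormone in brown fat, stood at -3.84 and -3.62 on WT arrays, -3.74 and -3.89 on tg/wt arrays and -0.71 and -0.64 on tg/tg arrays, a rise of 3.06 from WT to tg/tg (SE 0.09, limma adjusted p 9.79e-06). Glycerol kinase (Gk) rose by 2.12 (limma adjusted p 4.54e-05). The brown fat genes Elovl3, Zic1, Lhx8 and Otop1 were, like Ucp1, not well above background on any array. The fat cell genes Serpina12, Aqp7, Acacb, Acvr1c, Hcar1 and Adig were also below background on all 6.

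**Figure D3:**
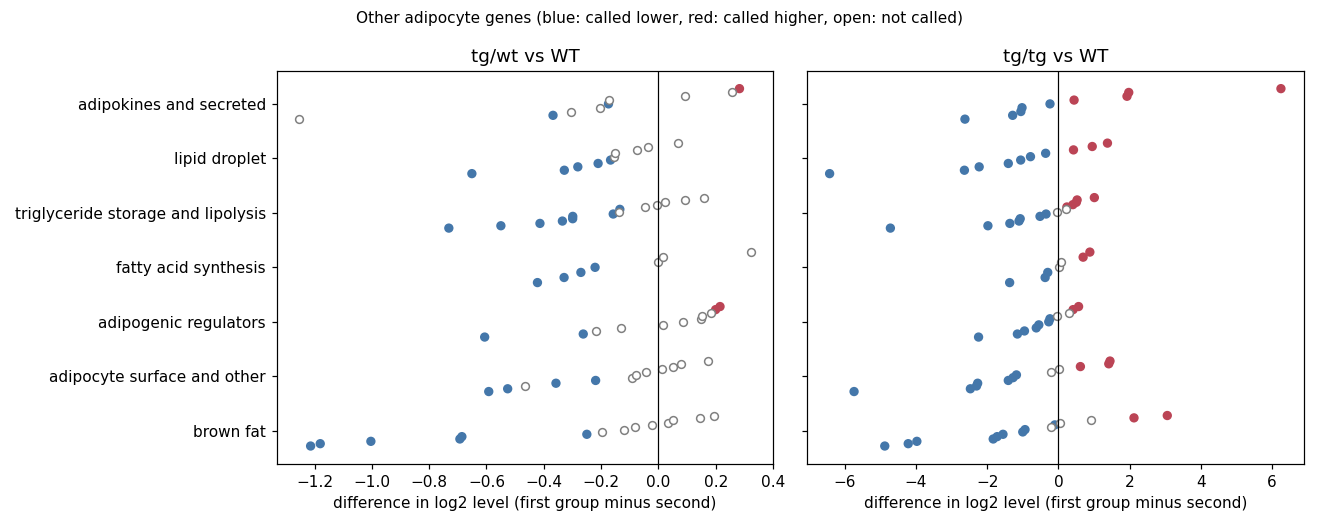
Each point is 1 of the 77 other adipocyte genes tested, in rows by list, and the x axis is the difference in log2 level between 2 genotypes (2 arrays each); blue and red points passed limma's test as lower or higher, and open points did not. In tg/wt against WT 31 points are blue and 3 red, and in tg/tg against WT 45 are blue and 21 red.

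Of the marker lists, only heart muscle had all of its tested genes lower by limma in both comparisons with WT. The 9 heart muscle genes had medians of -3.93 in tg/tg and -1.01 in tg/wt. Their summed level was 239 to 243 on WT arrays, 116 to 117 on tg/wt arrays and 14.6 to 14.9 on tg/tg arrays, or 47.98% to 48.6% of the WT mean in tg/wt and 6.05% to 6.18% in tg/tg. The 8 adipocyte genes summed to 36.6 to 37.8 on WT arrays, 23.4 to 23.7 on tg/wt arrays and 4.53 to 4.54 on tg/tg arrays, or 63.0% to 63.9% and 12.2% of the WT mean. Sums add linear signal, so they follow the brightest genes, in tg/tg mostly Fabp4 at 1.74 and 1.75. By gene the order was the other way: the median in tg/tg against WT was -5.09 for the 8 genes, or -4.26 with bounds, beside -3.93 for heart muscle. All 9 heart genes were above background on at least 1 array of each genotype. Heart muscle was not alone in being lower. The 6 skeletal muscle genes tested summed to 67.6% to 67.8% of the WT mean in tg/wt and 21.2% to 22.1% in tg/tg. Of the 5 mesothelial genes 4 were lower in each comparison with WT, with medians of -2.40 in tg/tg and -0.46 in tg/wt. The part of heart muscle or of these other tissues in the adipocyte differences was not tested.

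The background for the marker lists is that of all genes, 40.8% lower and 33.8% higher in tg/tg than WT, with 14.6% and 13.4% for tg/wt. The 10 endothelial genes were all lower in tg/tg and summed to 326 to 327 on WT arrays, 291 to 297 on tg/wt arrays and 126 to 127 on tg/tg arrays. Of 11 alveolar macrophage genes, 7 were lower and 3 higher in tg/tg (63.6% lower), their sum was 129.8 to 131 in WT, 120.4 to 124 in tg/wt and 113 in tg/tg, and Fabp1 was below background in tg/tg. In tg/wt, 2 of them were lower and 5 higher. On WT arrays the macrophage sum is mostly Chil3, at 6.47 and 6.45, so it does not follow the typical gene of this list. The median difference of the 11 genes from WT to tg/tg was -0.85. Krt79 differed by -4.89 and Ear1 by -3.33, and Fabp1 was at least 90.1-fold lower. The 3 that rose were Marco (2.26), Itgax (1.40) and Mrc1 (1.14). From WT to tg/wt, Krt79 and Ear1 instead rose, by 0.23 and 0.48. The 5 lipofibroblast genes, 4 lower and 1 higher in tg/tg, summed to 27.0 to 27.5 on WT arrays, 25.5 to 26.01 on tg/wt arrays and 7.82 to 8.08 on tg/tg arrays. Of the 6 skeletal muscle genes tested 5 were lower in tg/tg, with sums of 4.71 to 4.91 on WT arrays, 3.25 to 3.26 on tg/wt arrays and 1.02 to 1.06 on tg/tg arrays, Myh1 below background in all genotypes and Ckm in tg/tg.

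Of the 5 mesothelial genes 4 were lower in tg/tg and 4 in tg/wt, with 1 higher in tg/tg, and their sums were 26.02 to 26.6 in WT, 19.6 in tg/wt and 26.8 to 30.3 in tg/tg. These sums are mostly Msln, the gene that was higher, at 4.35 and 4.34 in WT and 4.88 and 4.69 in tg/tg. The median of the 5 in tg/tg against WT was -2.40. The 3 nerve genes had 2 lower in tg/tg, with sums of 87.8 to 89.1 on WT arrays, 76.5 to 77.6 on tg/wt arrays and 48.4 to 49.98 on tg/tg arrays. Most of the nerve sum is Pmp22, at 6.32 and 6.30 on WT arrays. The 3 thymus genes had 1 lower and 2 higher in tg/tg and summed to 4.89 to 4.98 on WT arrays, 5.21 to 5.42 on tg/wt arrays and 8.84 to 9.12 on tg/tg arrays, while Psmb11, Foxn1, Ptcra and Rag1 were below background throughout. The liver and kidney genes Apoa1, Ttr, Umod, Slc34a1 and Kap were below background in every genotype, and Alb in tg/tg. Of the 7 lung genes, 3 were lower and 2 higher in tg/tg, 42.9% and 28.6%. Sftpc was saturated on all 6 arrays and was left out of their sum, a choice made after the data were seen. The other 6 summed to 934 to 952 on WT arrays, 822 to 934 on tg/wt arrays and 822 to 902 on tg/tg arrays. Single genes among them moved more: Hopx stood at 6.49 and 6.54 in WT and 4.92 and 4.96 in tg/tg. Sftpd stood at 6.97 and 6.99 in WT and 7.94 and 7.84 in tg/tg. No marker list shares a gene with the adipocyte lists, and what these cells add to the adipocyte differences was not tested.

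**Figure D4:**
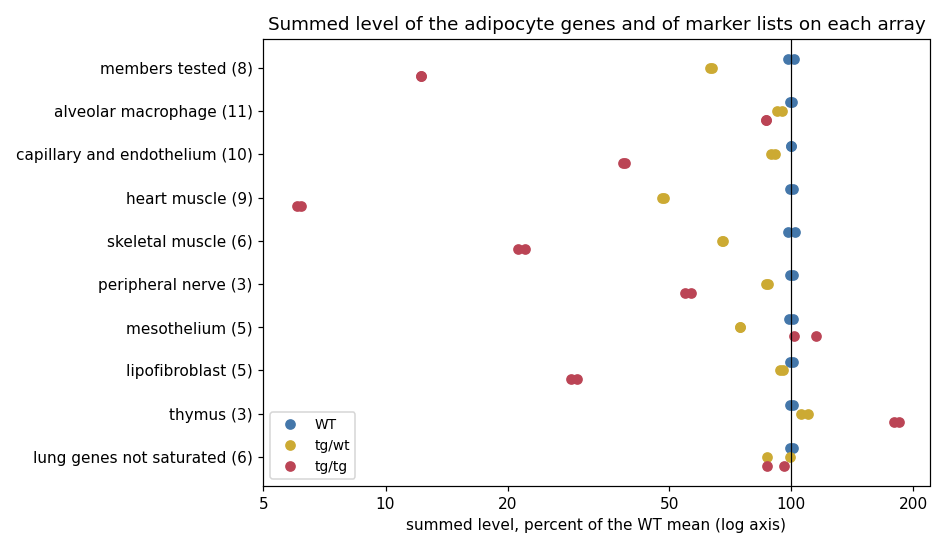
Each row is the 8 measured adipocyte genes or a marker list, with the number of genes tested in brackets, and each point is 1 array; the x axis, on a log scale, is the summed level as a percent of the WT mean. The heart muscle genes lie at 6.05% to 6.18% in tg/tg and the adipocyte genes at 12.2%, while the 6 lung genes that were not saturated lie between 87.2% and 101% on all arrays. Each sum adds linear signal and so follows the brightest genes of its row, not the typical gene.

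A mean centred profile was taken of Cfd, Cidea and Fabp4, the 3 adipocyte genes above background on all 6 arrays. The genes nearest to it were found by root mean square difference over 11880 other genes. The profile averages unlike genes, with tg/tg against WT at -5.77 for Cfd, -1.27 for Cidea and -1.47 for Fabp4, so nearness to it is not likeness to any 1 of them. The nearest were Pde4dip (0.03), an anchoring protein abundant in heart and muscle, Sult1d1 (0.06), a sulfotransferase, and Popdc2 (0.09), a cyclic AMP-binding membrane protein of heart and muscle. Mdh1b (0.10), Lgals2, Aldh1a2 (both 0.13), Hhatl and 1700024G13Rik (both 0.14) followed. Pde4dip stood at 3.20 and 3.23 on WT arrays, 2.38 and 2.37 on tg/wt arrays, and 0.33 on both tg/tg arrays. The 8 adipocyte genes themselves lay at 0.60 to 3.31 from that profile, wider apart than those 8 genes from it. Taken singly, a comparison added after these values were seen, Cidea was closest to Mst1 (0.04) and Pdk4 (0.06), Fabp4 to Plin5 (0.03), and Cfd to Mb, the myoglobin gene of heart and muscle (0.21). Next for Cfd were Slc38a5 (0.42) and Gria1 (0.43).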

How the data were processed

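Lung RNA of 3 genotypes was measured on 6 one-colour arrays, 2 per genotype. The authors deposited linear intensity values; per the file headers they were background-subtracted and extracted with Agilent Feature Extraction 9.5.3.1, while the submitters' processing notes name 9.1. The files used here hold no gene name, so 22951 of 41174 probes were named by matching accessions to RefSeq on GRCm38; the others are unnamed. The deposited series table equals the background-subtracted scanner values and served as an alternative.

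Levels are log2 of the processed signal less the 75th percentile over probes of that array, without control and outlier spots. Probes well above background on at least 2 arrays entered, a gene being represented by its brightest probe. Group means over all 6 arrays were fitted with limma 3.58.1 (lmFit, eBayes; R 4.3.3, 3 residual degrees of freedom) and adjusted by Benjamini-Hochberg over 12968 genes, threshold 0.05; the fit was tested on simulated data. Where no array of a group was above background, "at least" folds set each such array at the higher of the probe's signal and its lowest signal above background.

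Members and lists were chosen with earlier results of these data known. Beyond the members, up to 3 genes per list and comparison were named: the widest called differences without overlap, above background throughout the higher group; called genes against their list's direction could be added. Alternatives were quantile normalization, other percentile probes, 2 normexp corrections (offset 50) on the median signal (the mean signal is not in the files used here), the series table, filters, a floor, probe averaging, other fits, slide and replicate blocks, and leaving out arrays. Figures used Python 3.11.15 and matplotlib 3.10.9.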

Additional observations from a re-analysis of the deposited data

How the results depend on the processing

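All 8 measured adipocyte genes kept their sign under every alternative run, except Slc7a10 in tg/wt against WT, which came to 0.058 under normexp on the median signal. That correction also gave 2342, 1 and 1873 genes lower by limma in tg/tg against WT, tg/wt against WT and tg/tg against tg/wt, beside 5297, 1889 and 5217. It gave 0 and 27 other adipocyte genes lower by limma in tg/wt against WT and tg/tg against tg/wt, beside 31 and 44; at an unadjusted p under 0.05 the first was 25, beside 39. In tg/tg against WT, 40 of the 66 other adipocyte genes called were still called and 7 changed sign. In tg/wt against WT, none of the 34 called was still called and 8 changed sign. The cause was not tested. The 8-gene median in tg/tg against WT was -2.96 with that correction, -2.75 with the local background capped, -5.40 with the series table and -4.24 with a floor, and -5.26 to -4.75 without 1 array each. In tg/wt against WT it was -0.59, -0.63 with the cap and -0.65 with quantile normalization. In tg/tg against tg/wt it was -2.05 with either normexp version, -4.58 with the series table and -3.40 with the floor. Without a filter on dim probes, 1207 genes were lower in tg/wt against WT. Leaving out 1 array each gave 594 (without WT 1) to 1825 there for all genes, 711 without WT 2, 887 without tg/wt 1 and 718 without tg/wt 2, and 12 to 29 for the other adipocyte genes. The replicate numbers do not pair the arrays (deviations of same-numbered arrays correlated at -0.05, 0.13 and -0.05); with the number as a block, 5191, 1345 and 5110 genes and 44, 26 and 44 other adipocyte genes were lower. Within the slide that held WT and tg/tg, 5183 and 44 were lower; a slide block could not be fitted in the comparisons with tg/wt. The number of arrays limits the precision, and signal near background sets the falls only as bounds.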
